A study of Mus musculus with 2 samples.

Results

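Hyaluronan is a very long sugar chain of the extracellular matrix, spun out at the plasma membrane by synthases from UDP-glucuronic acid and UDP-N-acetylglucosamine, trapped near the cell by receptors and binding proteins, and cut by hyaluronidases. In adipose tissue it is a component of the matrix around progenitor cells, and mesothelial cells, the epithelium covering visceral fat, are known for a hyaluronan-rich coat. The genes described here were 8 chosen by name, of the 31054 counted: the synthases Has1 and Has2, the precursor enzymes Uap1 (last step to UDP-N-acetylglucosamine) and Ugdh (UDP-glucose to UDP-glucuronic acid), the receptor Cd44, the binding proteins Tnfaip6 (TSG-6, which carries heavy chains onto hyaluronan) and Vcan (the proteoglycan versican), and the hyaluronidase Hyal2. All 8 members were found in both libraries and all had UMIs in both cell classes.

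The cells were CD31- CD45- cells of gonadal white adipose tissue (gWAT) from 18-month-old male p16-CreERT2/R26-LSL-tdTomato mice. In these mice tamoxifen lets a Cre recombinase made from the p16 locus remove a stop in front of tdTomato, so that cells with p16 promoter activity become lastingly red. Both libraries came from such tamoxifen-treated mice and are labelled by the sort gate, Tom+ or Tom-, while the number of mice pooled in each was not given in the sources used here. There was 1 library per gate and therefore no replicate, so no test between gates was possible, differences between gates cannot be told apart from differences between preparations, and every interval below is a 95% interval for counting error alone.

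After the filter of over 1000 and under 7000 genes and under 8% mitochondrial UMIs, 3524 Tom+ cells (56481793 UMIs) and 6717 Tom- cells (90426815 UMIs) remained. Cells with at least 10 UMIs of Msln, Upk3b, Krt19, Lrrn4 and Upk1b summed were called mesothelial (250 Tom+ and 1887 Tom- cells), those with under 5 were called stromal (3263 and 4800 cells), and 11 and 30 cells lay between. The class calls were checked on other genes: all 8 mesothelial genes not used for the call, such as Wt1 and Krt18, were higher in mesothelial cells of both libraries, with a summed level of 2940 and 3094 CPM (UMIs of a gene scaled to a total of 1e6) against 195 and 303 CPM in stromal cells. Stromal genes (Pdgfra, Dcn and 5 others) summed to 29715 and 30468 CPM in stromal cells and to 13203 and 14852 CPM in mesothelial cells. The stromal class was not pure, since 136 of its Tom+ and 54 of its Tom- cells had at least 5% immunoglobulin UMIs. The reporter read 211 CPM in Tom+ and 13.1 CPM in Tom- stromal cells, and 780 and 8.25 CPM in mesothelial cells. RNA of the p16 gene, Cdkn2a, was lower in Tom+ than in Tom- stromal cells (log2 ratio -0.31) and higher in Tom+ mesothelial cells (0.55). The 2 libraries listed 2224 barcodes in common, of which 9 passed the filter in both. Such a barcode was carried by 506 Tom+ and 284 Tom- cells that passed. Among these were 100 of the 250 Tom+ mesothelial cells, with 3106589 of their 5322983 UMIs, and 207 of the 1887 Tom- ones. Values without such cells are given for the counts between classes and for the stromal ratios between gates. They are not given for the mesothelial ratios between gates, the shares or the member levels split by tdTomato.

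The members sorted into those shared by both cell classes and those largely stromal. Has1 was the synthase found in both. Its level was 227 CPM (222 to 231) in Tom+ stromal, 557 CPM (551 to 563) in Tom- stromal, 239 CPM (226 to 253) in Tom+ mesothelial and 322 CPM (316 to 328) in Tom- mesothelial cells. The Tom- stromal value stood above the other 3, and the 2 Tom+ values overlapped within counting error. Has2 was near absent from mesothelial cells, with 42.0 and 48.2 CPM in Tom+ and Tom- stromal cells but 5.82 CPM (31 UMIs in 9 cells) and 2.47 CPM (80 UMIs in 38 cells) in mesothelial cells. Has1 accordingly made up 97.2% (96.2 to 98.1) and 98.9% (98.6 to 99.1) of the UMIs of the 3 synthase genes in Tom+ and Tom- mesothelial cells, and 84.3% (83.6 to 84.9) and 92.0% (91.7 to 92.3) in stromal cells. Has3 had 18 and 14 UMIs in Tom+ and Tom- stromal cells and 5 and 40 in mesothelial cells.

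**Figure D1:**
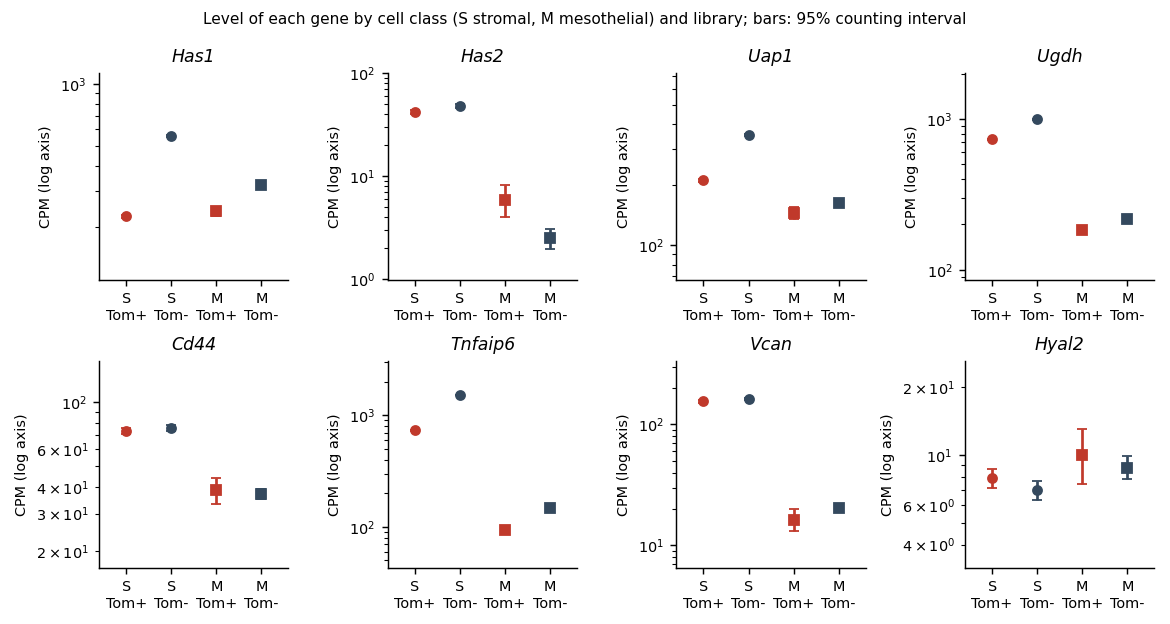
Each panel plots 1 gene, with its level in CPM on a log axis against the cell class (S stromal circles, M mesothelial squares) and library (red Tom+, dark Tom-), and bars give the 95% counting interval. Has2, Ugdh, Tnfaip6 and Vcan lie far lower in mesothelial cells of both libraries, Has1 does not in the Tom+ library (239 against 227 CPM), and Hyal2 stays between 6.98 and 9.96 CPM.

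UMIs of both precursor enzymes were found in both classes, at a lower level in mesothelial cells. Uap1 read 210.4 and 355 CPM in Tom+ and Tom- stromal cells and 145 and 163 CPM in mesothelial cells. Ugdh read 731 and 998 CPM in stromal cells and 183 and 218 CPM in mesothelial cells. For both enzymes the 4 values kept the same order, with Tom- stromal cells at the top and Tom+ mesothelial cells at the bottom.

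The genes that hold hyaluronan at the cell were stromal to different degrees. The receptor Cd44 read 73.5 and 75.5 CPM in stromal cells and 38.5 and 37.1 CPM in mesothelial cells, with the libraries overlapping in each class. Tnfaip6 read 733 and 1519 CPM in stromal cells and 94.1 and 149 CPM in mesothelial cells. Vcan, whose core protein binds hyaluronan through its amino-terminal domain, read 155 and 163 CPM in stromal cells and 16.3 and 20.4 CPM in mesothelial cells. Hyal2, a hyaluronidase anchored to the cell surface by a lipid, was the member with the fewest UMIs per stratum in stromal cells (402 and 404) and varied least, at 7.87 and 6.98 CPM in stromal and 9.96 and 8.78 CPM in mesothelial cells. The counts cover gene ends near the polyadenylation site, so the splice forms of Cd44 and Vcan, which differ in what they bind, were not resolved.

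Between mesothelial and stromal cells, a gene was counted as higher or lower where its level differed by at least 1.5-fold and it averaged 5 CPM or more over the 2 sides. In the Tom+ library 5 of the 8 members were lower in mesothelial cells and 0 higher, where 16.2% and 22.6% of all 10240 genes were lower and higher. In the Tom- library 7 of 8 were lower and 0 higher, where 13.9% and 21.0% of 10019 genes were. The members' median log2 ratio was -1.46 and -1.66, beside 0.11 and 0.14 over all genes. Vcan was 9.49-fold lower in mesothelial cells of the Tom+ library and 7.99-fold lower in those of the Tom- library. Tnfaip6 was 7.79-fold and 10.2-fold lower, Has2 7.21-fold and 19.5-fold, Ugdh 3.99-fold and 4.57-fold, and Cd44 1.91-fold and 2.04-fold. Uap1 and Has1 crossed the 1.5-fold line in the Tom- library (2.18-fold and 1.73-fold lower) but not in the Tom+ library, where Uap1 was 1.45-fold lower and Has1 read 0.08 on the log2 scale (-0.01 to 0.16). Hyal2 had log2 ratios of 0.34 (-0.10 to 0.76) and 0.33 (0.11 to 0.55).

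Without the shared barcodes 6 and 7 members were lower in mesothelial cells of the Tom+ and Tom- library, the sixth being Uap1 (log2 ratio -0.83). Where mesothelial cells were limited to those with at most 2 UMIs of the stromal genes Pdgfra, Dpt and Col15a1, the gap for Has2 widened to a log2 ratio of -5.09 in the Tom+ and -6.01 in the Tom- library, since 5 and 19 Has2 UMIs were left in 203 and 1595 cells.

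**Figure D2:**
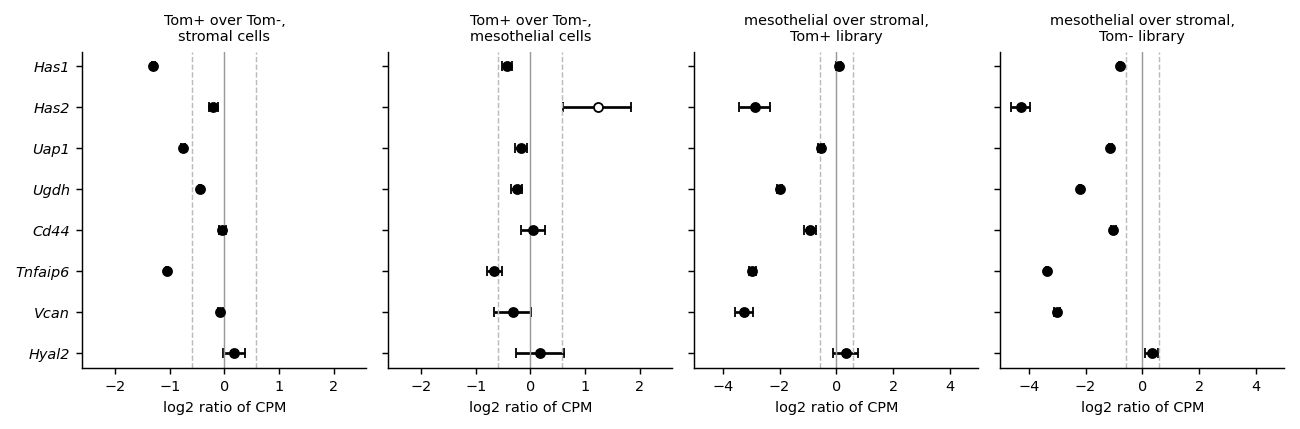
Each panel plots 1 comparison, with the log2 ratio of CPM on the horizontal axis for each of the 8 genes, bars for the 95% counting interval, and dashed lines at 1.5-fold. Open symbols mark a mean under 5 CPM. Has1, Tnfaip6 and Uap1 lie past the lower line in stromal cells (Tom+ over Tom-), and 7 genes lie past it in mesothelial against stromal cells of the Tom- library.

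Has1 was spread differently over the cells of the 2 classes. With each cell thinned to 5000 UMIs, at least 1 Has1 UMI was found in 52.0% (45.6 to 58.3) of Tom+ and 55.9% (53.6 to 58.2) of Tom- mesothelial cells, but in 32.3% (30.7 to 33.9) and 45.8% (44.4 to 47.3) of stromal cells; thinning left out 0, 31, 119 and 253 cells in that order. Without thinning the shares were 77.6%, 75.1%, 44.2% and 56.2%. The 10% of cells with the most Has1 held 46.9% and 47.9% of the Has1 UMIs in mesothelial cells, and 69.7% and 61.5% in stromal cells. Has1 UMIs were thus spread over more of the cells in the mesothelial class than in the stromal class. Up to 63 Has1 UMIs were counted in 1 thinned stromal cell of the Tom- library, against 32 in 1 mesothelial cell.

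Immunoglobulin-rich cells, a type not expected to make hyaluronan synthases, were set beside these shares. Thinned alike, 15.7% of 134 Tom+ and 34.6% (22.0 to 49.1) of 52 Tom- such cells had a Has1 UMI, and 0% and 3.85% a Has2 UMI; their median depth before thinning was 39561 and 33831 UMIs, against 14235 and 11270 in stromal cells. The Has1 share of Tom- stromal cells lay inside the wide interval of the Tom- immunoglobulin-rich cells, and that of Tom+ stromal cells above the Tom+ one (10.0 to 23.0). Has2 was found in 13.4% and 11.7% of stromal cells and in 0.80% and 0.86% of mesothelial cells, with intervals of 0.10 to 2.86 and 0.49 to 1.40 that overlapped those of the immunoglobulin-rich cells. Vcan in mesothelial cells, at 8.40% (5.27 to 12.6) and 7.97% (6.78 to 9.30), had intervals overlapping those of immunoglobulin-rich cells, at 7.46% (3.64 to 13.3) and 13.5% (5.59 to 25.8), against 43.2% and 41.7% in stromal cells. Tnfaip6 in mesothelial cells, at 23.2% and 29.6%, lay below the 38.8% and 51.9% of immunoglobulin-rich cells, and 75.2% and 83.8% of stromal cells had a UMI of it. The UMIs were uneven in both kinds of cell, with up to 29 Tnfaip6 UMIs in 1 thinned immunoglobulin-rich cell and 32 in 1 mesothelial cell, both of the Tom- library. Hyal2 in mesothelial cells, at 5.20% and 3.34%, had intervals overlapping those of immunoglobulin-rich cells, at 0.75% and 0%. Cd44, at 16.4% and 12.9%, lay below their 29.1% and 32.7%. Those shares were no lower than the 24.4% and 23.0% of stromal cells, so the immunoglobulin-rich cells give no background for Cd44. Ugdh (49.2% against 27.6%) and Uap1 (41.2% against 22.4%) lay above them in the Tom+ library, with intervals apart. In the Tom- library both overlapped them (52.4% against 48.1%, 44.6% against 28.8%). From these shares, mesothelial expression of Has2, Vcan, Tnfaip6 or Hyal2 could not be told from RNA carried over from other cells. The same held for Ugdh and Uap1 in the Tom- library. Up to 22 Has1 UMIs were counted in 1 thinned immunoglobulin-rich cell of that library. Whether these cells held carried-over RNA alone was not tested. For Cd44 the shares cannot decide, lacking a background. By level, Cd44 read 38.5 and 37.1 CPM in Tom+ and Tom- mesothelial cells, against 73.5 and 75.5 CPM in stromal cells. For Hyal2 the shares of immunoglobulin-rich cells rested on 1 of 134 Tom+ and 0 of 52 Tom- cells. By level, Hyal2 read 9.96 and 8.78 CPM in Tom+ and Tom- mesothelial cells and 7.87 and 6.98 CPM in stromal cells. In the stromal cluster of immunoglobulin-rich cells (cluster 8, below) it read 1.66 CPM, with an interval below both mesothelial ones. Whether carry-over could give these levels of Hyal2, or those of Cd44, Ugdh and Uap1, was not tested.

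Within stromal cells the synthase and precursor genes were found together. Among Tom- stromal cells with a Has1 UMI, 84.9% (83.3 to 86.4) had an Ugdh UMI, 70.5% (68.5 to 72.4) a Uap1 UMI and 16.4% (14.8 to 18.1) a Has2 UMI. Among those without one the shares were 62.7%, 51.0% and 7.75%. In the Tom+ library the same 3 shares were 84.4%, 64.7% and 18.7% with Has1, and 64.3%, 46.6% and 10.8% without it. In mesothelial cells, Ugdh was found in 52.7% (49.6 to 55.8) of Tom- cells with Has1 and 52.0% (48.5 to 55.4) of those without, and in 51.5% and 46.7% in the Tom+ library, so that these intervals overlapped. Uap1 was found in 48.0% (44.9 to 51.1) of Tom- mesothelial cells with Has1 and 40.2% (36.8 to 43.7) of those without, with intervals apart, and in 43.8% and 38.3% in the Tom+ library, with intervals that overlapped. The widest gap for Has2 in stromal cells was with Vcan, found in 63.1% against 40.1% of Tom+ and 63.4% against 38.8% of Tom- cells with and without Has2. All these shares are from cells thinned to 5000 UMIs.

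The stromal cells fell into 10 clusters, named here by number in order of size and by leading genes, and the members were concentrated in a few of them. The clusters were made from all variable genes, so differences between clusters are descriptions and not tests. Cluster 4 (1083 cells; Pi16, Sema3c, Efhd1), with a summed level of 2801 CPM for interstitial progenitor markers against 36 to 328 CPM in the other clusters, was the richest in 4 members: Has2 at 172 CPM (165 to 179), Uap1 at 801 CPM, Ugdh at 2455 CPM and Vcan at 340.5 CPM. Cluster 3 (1101 cells; Cpxm2, Mfap4, Il33, Il6) had the highest Has1, at 1088 CPM (1070 to 1106), and the highest Tnfaip6, at 2505 CPM, with Has2 at 21.8 CPM. Has1 in cluster 4 was next, at 945 CPM. These levels sum both libraries, and Tom+ cells made up 17.4% of cluster 3 and 36.6% of cluster 4; in the Tom- library alone Has1 was 1147 CPM (1127 to 1168) in cluster 3 and 1139 CPM (1117 to 1162) in cluster 4, which overlap, and in the Tom+ library 851 and 639 CPM.

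Clusters 3 and 4 thus held like levels of Has1 in the Tom- library only. Their Has2 levels differed in both libraries, at 23.5 against 158 CPM in Tom+ and 21.4 against 180 CPM in Tom- cells. In the 3 clusters lowest in Has1 apart from the immunoglobulin-rich one, which were cluster 1 (2207 cells; Aspa, Vtn, Igf1), cluster 2 (1766 cells; Scg3, Sox4, Mmp11) and cluster 6 (476 cells; Pi15, Eln, Myh11), Has1 was 128, 120.1 and 120.3 CPM. Cluster 5 (880 cells; Vdr, Adamts9, Thbd) lay between, with Has1 at 647 CPM and Tnfaip6 at 1965 CPM. Cd44 had another order, being highest in cluster 9 (77 cells; Lyz2, C1qa, genes of macrophages) at 193 CPM (167 to 221), next in cluster 7 (256 cells; Clu, Acta2, Ncam1) at 160.5 CPM, and lowest in cluster 1 at 47.8 CPM. Hyal2 ran from 13.7 CPM (9.63 to 18.9) in cluster 7 to 1.66 CPM in cluster 8, the immunoglobulin-rich cells, where Has1, Has2, Uap1, Ugdh, Tnfaip6 and Vcan also had their lowest level among the 9 clusters with at least 50 cells. Cluster 10 (28 cells) carried mast cell genes and was too small to be compared.

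**Figure D3:**
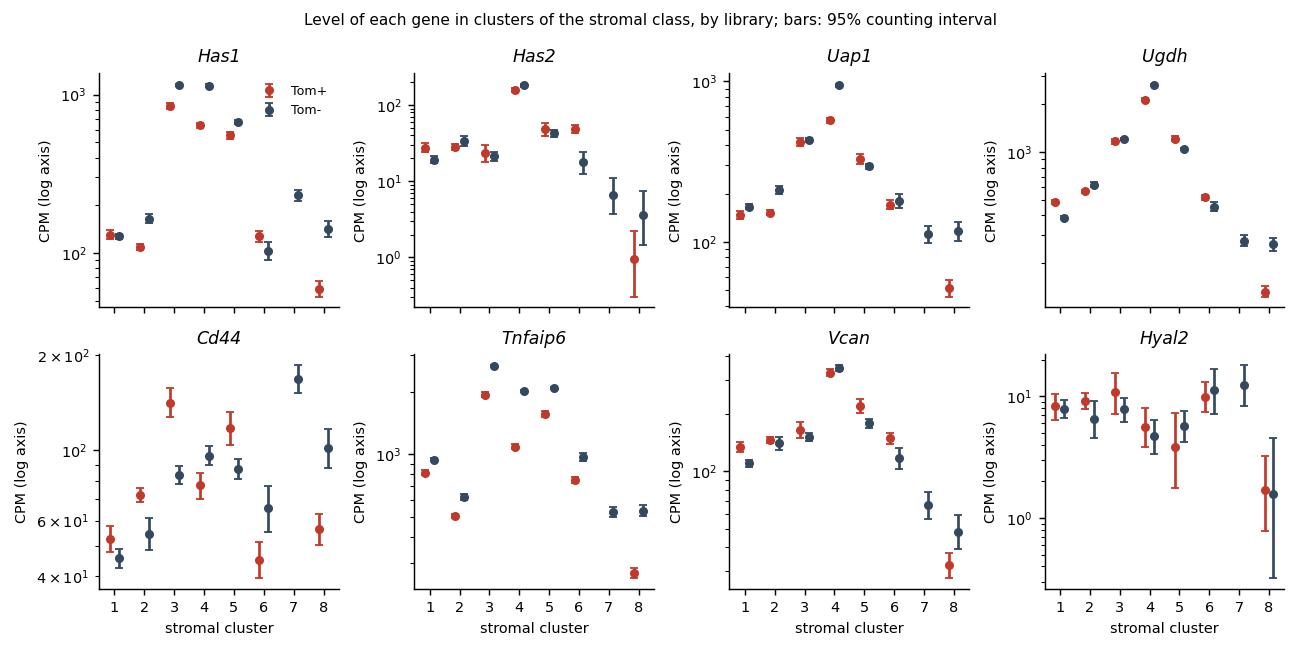
Each panel plots 1 gene, with its level in CPM on a log axis against stromal clusters 1 to 8 for each library with at least 50 cells of the cluster, and bars for the 95% counting interval. Has2, Uap1, Ugdh and Vcan peak in cluster 4 (172 CPM for Has2, both libraries summed), and Has1 and Tnfaip6 are high in clusters 3, 4 and 5.

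Over 15 points, each 1 cluster in 1 library with at least 50 cells, the closest pairs among the members were Uap1 with Ugdh (Pearson r = 0.98 of log2(CPM + 1)) and Has2 with Vcan (r = 0.98). Without cluster 8, over 13 points, these were 0.97 and 0.96. Has1 ran with Uap1 (0.89), Tnfaip6 (0.88) and Ugdh (0.87) and less with Has2 (0.60), and without cluster 8 these were 0.86, 0.85, 0.84 and 0.45. The points share 2 libraries, their depth and the clustering itself, and r is given as a description.

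Each member was also set against the 5622 other genes averaging 20 CPM or more (5623 for Hyal2, itself below that level). The genes most like Uap1 and Ugdh, besides each other, included Gfpt2, a rate-limiting enzyme that feeds the hexosamine pathway (r = 0.97 with Uap1 and 0.98 with Ugdh). The genes most like Tnfaip6 included Hk2, the hexokinase that traps glucose in the cell (0.95), with D830025C05Rik (0.95) and Pmvk (0.94). For Has1 they were Spsb1 (0.94), Lsmem1 (0.92) and the neutrophil chemokine Cxcl1 (0.91). For Has2 they included Vcan and Ntn4 (0.96), and for Vcan they included Has2 and Sema4c (0.97). For Cd44 they were the chemokine Cxcl5 (0.86), Gch1 (0.83) and Tnfaip3 (0.83), a brake on NF-kappa B signalling. Hyal2 lay nearest to Aldh1a1 (0.95), Tcea3 (0.95) and Tfdp2 (0.94), and without cluster 8 these were 0.86, 0.84 and 0.85. The relation of Hyal2 to the other members turned with cluster 8, as with Vcan from 0.35 to -0.77.

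**Figure D4:**
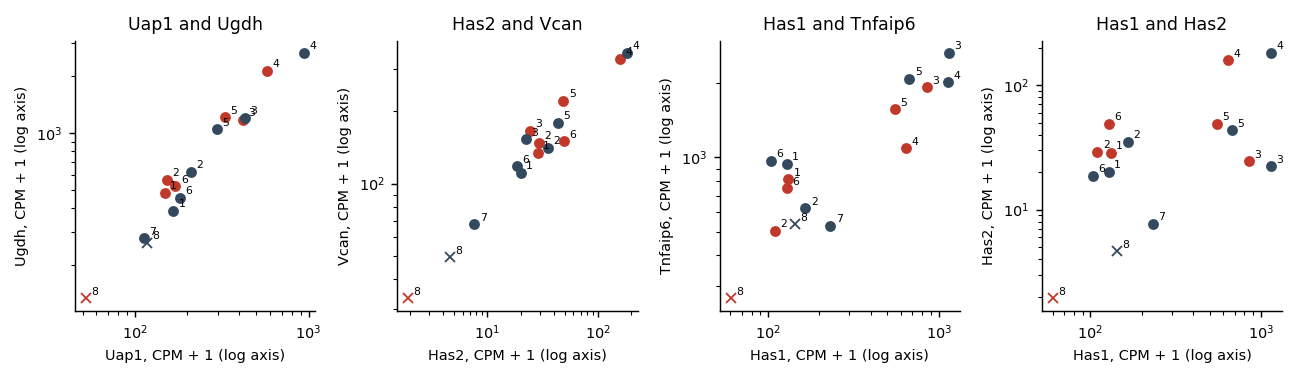
Each panel plots a pair of genes, both as CPM + 1 on log axes, with 1 numbered point for each stromal cluster in each library (red Tom+, dark Tom-) and crosses for cluster 8. Uap1 and Ugdh lie along a line (r = 0.98), as do Has2 and Vcan (r = 0.98), and clusters 3 and 4 share a high Has1 while differing in Has2.

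Between the gates, 3 of the 8 members were at least 1.5-fold lower in Tom+ than in Tom- stromal cells and 0 higher, where 3.25% and 3.86% of all 9778 genes were lower and higher. Has1 was 2.46-fold lower (log2 ratio -1.30, -1.33 to -1.27), at percentile 0.409 of all genes. Tnfaip6 was 2.07-fold lower (log2 ratio -1.05, -1.07 to -1.03) and Uap1 1.69-fold lower (-0.75, -0.79 to -0.72). The other log2 ratios were -0.45 for Ugdh, -0.20 for Has2, -0.07 for Vcan, -0.04 for Cd44 and 0.17 for Hyal2, the last 2 with intervals that held 0. The median was -0.32 over the members and 0.07 over all genes. Without the shared barcodes the 3 ratios were -1.17 for Has1, -0.94 for Tnfaip6 and -0.62 for Uap1. Genes that respond to tissue dissociation were lower too: 17 of 18, such as Fos and Junb, had a lower level in Tom+ stromal cells. Egr1 did not (log2 ratio 0.03). By 1.5-fold 3 of the 18 were lower, beside 3.25% of all genes, and their median log2 ratio was -0.28. Their summed level was 31960 against 38471 CPM. Over the 15 points of clusters by library, r of the summed list was 0.22 with Has1, 0.33 with Uap1 and 0.45 with Tnfaip6. Over all members it ran from -0.14 (Cd44) to 0.76 (Hyal2). It was not computed without cluster 8, which was lowest in both Hyal2 (1.66 CPM) and the summed list (14384 CPM). The part of these genes in the result was not tested.

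The 3 genes past the line over the whole stromal class are shown with the bases upstream of their starts. Within clusters, as given below, their directions were not always the same. Each sequence is the RefSeq promoter strand of GRCm38.p6 (mm10), in the direction of the gene, ending before the start given by either RefSeq or GENCODE. Has1 lies at chr17:17843323-17855205 on the minus strand, Tnfaip6 at chr2:52038009-52056686 on the plus strand and Uap1 at chr1:170141938-170174957 on the minus strand, all protein-coding. The windows are chr17:17855206-17855438, chr2:52037863-52038008 and chr1:170174965-170175214, and capitals mark the letters TGACGT (the core of the cyclic AMP response element) or TGANTCA (the AP-1 site) on either strand.
Has1: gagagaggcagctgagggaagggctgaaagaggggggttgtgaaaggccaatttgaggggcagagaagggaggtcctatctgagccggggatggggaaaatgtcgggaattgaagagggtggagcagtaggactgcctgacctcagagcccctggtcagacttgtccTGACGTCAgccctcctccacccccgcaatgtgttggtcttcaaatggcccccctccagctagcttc
Tnfaip6: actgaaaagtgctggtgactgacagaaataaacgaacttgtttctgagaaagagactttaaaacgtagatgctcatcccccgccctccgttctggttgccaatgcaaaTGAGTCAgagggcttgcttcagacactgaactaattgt
Uap1: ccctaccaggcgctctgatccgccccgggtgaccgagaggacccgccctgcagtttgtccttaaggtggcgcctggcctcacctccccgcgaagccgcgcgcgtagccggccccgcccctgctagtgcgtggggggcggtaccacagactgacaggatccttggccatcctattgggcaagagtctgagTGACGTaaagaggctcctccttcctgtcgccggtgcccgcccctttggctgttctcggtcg

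The Has1 window held TGACGT on both strands in 1 overlapping palindrome beginning 83 bases before the RefSeq start, the Uap1 window held it 61 bases before the start, and the Tnfaip6 window held TGAGTCA 142 bases before the RefSeq start. Over the 250 bases before each of 32851 RefSeq starts, TGACGT was present in 6.47% and TGANTCA in 6.75%. Of the 7 members with a RefSeq promoter entry (all but Has2), 2 held TGACGT, 1 held TGANTCA, 4 held CCAAT (33.8% of all starts), 5 held GGGCGG (32.7%), and 0 held TATAAA (12.4%) or CACGTG (6.02%). The other members lie at chr15:56665627-56694539 (Has2), chr5:65413221-65435949 (Ugdh), chr2:102811141-102901665 (Cd44) and chr13:89655312-89742509 (Vcan) on the minus strand, and at chr9:107567945-107572779 (Hyal2) on the plus strand.

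The clusters were unequally shared by the gates, and the part of this in the stromal difference was not tested. Tom+ cells made up 17.4% of cluster 3 and 19.2% of cluster 5, both high in Has1 and Tnfaip6, and 76.5% of cluster 2 and 70.0% of cluster 6, both low in Has1. With equal weights for the 7 clusters represented by 50 or more cells in both libraries (1 to 6 and 8), the log2 ratio was -0.50 for Has1, -0.50 for Tnfaip6 and -0.35 for Uap1, and 0 members were past the 1.5-fold line. Without cluster 8 these were -0.48, -0.48 and -0.31.

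Within clusters, Tnfaip6 was lower in Tom+ cells beyond counting error in 7 of 7 clusters, with log2 ratios from -1.0 to -0.21. The -1.0 was that of cluster 8, the immunoglobulin-rich cells, and the next lowest was -0.89 in cluster 4. All members but Hyal2 were lower in Tom+ cells of cluster 8, so each count of lower clusters given here, apart from that of Hyal2, includes it. B or plasma cell genes such as Igkc summed to 418622 CPM in cluster 8, and their part in its ratios was not tested. Shares over all genes were not computed within clusters, so these counts cannot be read as a trait of the members. Has1 was lower in 5 clusters, with -0.83 in cluster 4 (639 against 1139 CPM) and -1.26 in cluster 8 as its lowest ratios, higher in cluster 6 (0.31) and level in cluster 1 (0.04). Uap1 was lower in 4 clusters and higher in 1, and Ugdh was lower in 3 and higher in 3. Cd44 was lower in 3 and higher in 4, by up to 0.76 in cluster 3 (142 against 83.7 CPM), while its levels over the whole class overlapped. Has2 was higher by 1.45 in cluster 6 (48.1 against 17.7 CPM) and by 0.53 in cluster 1, and lower in 3 clusters. Vcan was higher in 3 clusters and lower in 1, and Hyal2 differed beyond counting error in 0 of 7.

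**Figure D5:**
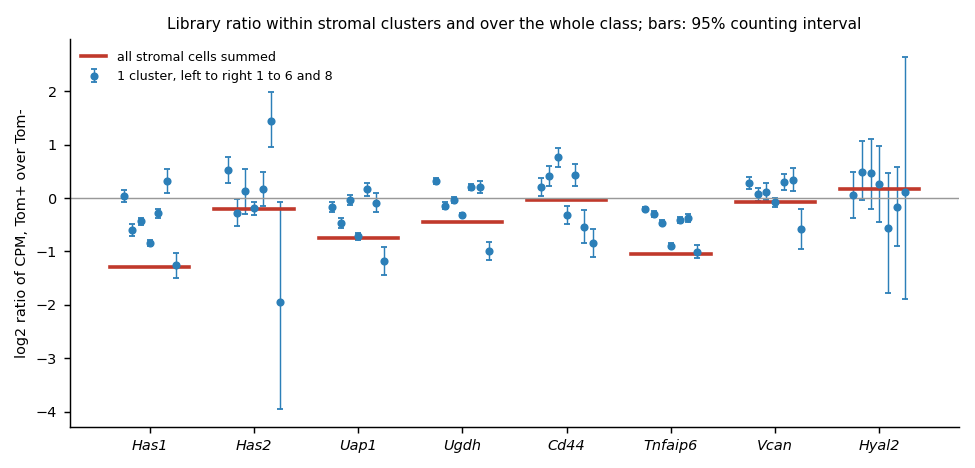
For each gene, points give the log2 ratio of CPM (Tom+ over Tom-) within each of 7 stromal clusters, with 95% counting intervals, and the red line gives the ratio over all stromal cells summed. The points of Has1, Tnfaip6 and Uap1 lie mostly above their red lines (-1.30, -1.05 and -0.75), and all 7 points of Tnfaip6 lie below 0.

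Between the gates, fewer members, and a smaller share of all genes, passed the 1.5-fold line in mesothelial cells than over the whole stromal class. With equal weights for the stromal clusters, as given above, Tnfaip6 differed no more in stromal than in mesothelial cells. Of the 7 members averaging 5 CPM or more, 1 was at least 1.5-fold lower in Tom+ cells (Tnfaip6, 1.58-fold, log2 ratio -0.66, -0.80 to -0.53) and 0 were higher, where 1.16% and 1.87% of 10014 genes were lower and higher. The share of mesothelial cells with a Tnfaip6 UMI lay below that of immunoglobulin-rich cells in both libraries, as given above, so this ratio may not be one of mesothelial expression. Has1 had a log2 ratio of -0.43 (-0.51 to -0.34), Ugdh -0.25 and Uap1 -0.17, and the intervals of Cd44 (0.06), Vcan (-0.32) and Hyal2 (0.18) held 0. The members' median was -0.25, beside 0.03 over all genes. Without the cells called doublets by Scrublet (104 Tom- and 2 Tom+ mesothelial cells), the ratio of Tnfaip6 was -0.21 and it was no longer counted, and with mesothelial cells set at 20 or more marker UMIs it was -0.54. Immune genes such as Ptprc and Tyrobp summed to 74.6 CPM in Tom+ and 4.82 CPM in Tom- mesothelial cells, and without cells holding 2 or more of their UMIs the ratio of Tnfaip6 was -0.59 and that of Has1 -0.38.

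Cells with and without a tdTomato UMI were compared within each library and class. In Tom+ stromal cells thinned to 5000 UMIs, Has1 read 197 CPM in 553 cells with a tdTomato UMI and 247 CPM in 2591 cells without, a log2 ratio of -0.33 (-0.46 to -0.20). With immunoglobulin UMIs limited to under 1% of a cell, an alternative chosen after seeing the data, these were 238 and 246 CPM in 431 and 2570 cells, a ratio of -0.05 (-0.19 to 0.09). Tnfaip6 then read 802 and 805 CPM (0.00, -0.08 to 0.07) and Uap1 230 and 235 CPM (-0.03). Ugdh read 736 and 826 CPM (-0.17, -0.24 to -0.09) and Vcan 137 and 163 CPM (-0.25, -0.43 to -0.08). Cd44 went the other way, at 83.5 and 70.6 CPM (0.24, 0.004 to 0.48). In Tom- stromal cells Has1 was lower with a tdTomato UMI, at 467 CPM in 281 cells against 554 CPM in 4266 cells (-0.25, -0.36 to -0.13), and at -0.24 (-0.36 to -0.13) under the limit on immunoglobulin UMIs. Ugdh had a ratio of -0.42 (-0.51 to -0.33) there, with and without that limit. Over all Tom- stromal cells Vcan had -0.33 (-0.56 to -0.11). The intervals of Tnfaip6 (-0.02, -0.09 to 0.04) and Uap1 (-0.07, -0.21 to 0.06) held 0, as did those of Has2, Cd44 and Hyal2. In Tom- mesothelial cells Has1 was lower with a tdTomato UMI, at 189 CPM in 72 cells against 348 CPM in 1784 cells (-0.88, -1.25 to -0.54), while in Tom+ mesothelial cells it was 248 and 269 CPM in 157 and 93 cells (-0.11, -0.45 to 0.22). A missing UMI does not show that a cell lacked the reporter: of cells with unshared barcodes, 25.2% of Tom+ and 13.0% of Tom- stromal cells had one before thinning.

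The other genes of the pathway were taken from a list of 47 names covering precursor supply, cleavage, receptors and cross-linking proteins, of which 46 were in the files. In the stromal comparison of gates, 27 averaged 5 CPM or more, of which 4 were lower in Tom+ cells and 1 higher, beside 3.25% and 3.86% of all genes, with a median log2 ratio of 0.00. Lower were Ptx3, a pentraxin that cross-links hyaluronan with heavy chains (-0.96), Hk2 (-0.85), Gfpt2 (-0.64) and the receptor Lyve1 (-1.22, 3.27 against 7.64 CPM), and higher was the scavenger receptor Stab1 (0.90, 6.75 against 3.61 CPM). In mesothelial cells 2 of 27 were higher in Tom+ cells, Stab1 (25.2 against 1.58 CPM) and Lyve1 (9.96 against 2.38 CPM), both also known from macrophages, and Ptx3 was lower (11.5 against 36.7 CPM). Of all 10014 genes, 1.87% were higher and 1.16% lower.

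Between the classes, 6 of 27 pathway genes were higher and 9 lower in mesothelial cells of the Tom+ library, and 4 of 26 higher and 10 lower in the Tom- library. The shares of all genes were 22.6% higher and 16.2% lower in the Tom+ library, and 21.0% and 13.9% in the Tom- library. Ezr, ezrin, a linker of membrane proteins such as CD44 to actin, was the highest by ratio (log2 4.08 in the Tom+ and 3.91 in the Tom- library, at 608 and 576 CPM in mesothelial cells). The cell-surface hyaluronidase Tmem2 (1.79 and 1.12), the glycolytic enzyme Gpi1 (0.96 and 0.93) and the receptor Tlr2 (1.41 and 1.46) were higher too. Ptx3 (-4.62 and -3.90), the heavy chain gene Itih5 (-4.01 and -3.35), Hk2 (-2.24 and -3.20) and Gfpt2 (-0.79 and -1.34) were lower, as were the lysosomal enzymes Gusb (-1.40 and -1.19) and Hexa (-0.76 and -1.02).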

How the data were processed

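Single-cell libraries (droplet 3′ chemistry, DNBSEQ) were made by the authors from 1 Tom+ and 1 Tom- sort. Unnormalized UMI counts for every gene in every cell were deposited by the authors, who ran Cell Ranger 3.0.2 on mm10, and the gene list includes tdTomato. The authors kept cells with over 1000 and under 7000 genes and under 8% mitochondrial UMIs, and the same limits were applied here.

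Counts were summed per library and class and scaled to CPM of all UMIs. Intervals are exact Poisson (levels), Clopper-Pearson (shares) and exact conditional binomial (ratios), at 95%, for counting error only. With 1 library per gate there was no test across samples. Shares were read after thinning each cell to 5000 UMIs, and shallower cells were left out. Stromal cells were clustered on 2000 variable genes, the 8 members left out, with 30 principal components and 20 neighbours (scanpy 1.11.5, Leiden resolution 0.4). Doublets were kept, and Scrublet was run per library as an alternative (2 Tom+ and 122 Tom- cells called). The ratios were tried on simulated counts. Thinning was tried on the measured Tom+ mesothelial cells, where only the UMI totals per cell were read. Named genes were the 8 members, pathway genes past 1.5-fold (at most 10 per comparison) and the 3 genes most like each member, of which 1 gene is not reported here. Members, lists and rules were chosen with earlier results of these data known. Coordinates are from GENCODE vM21 and promoters from RefSeq, GRCm38.p6. Protein sequences were not used here.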

Additional observations from a re-analysis of the deposited data

Results flagged for a closer look

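Has2 had a library ratio of the opposite sign in the 2 classes. Its log2 ratio of Tom+ over Tom- was 1.24 (0.59 to 1.85) in mesothelial and -0.20 (-0.28 to -0.12) in stromal cells, a difference of 1.44, which was not tested because there was 1 library per gate. The mesothelial values rest on few cells: 31 UMIs in 9 of 250 Tom+ cells, 17 of them in 1 cell, and 80 UMIs in 38 of 1887 Tom- cells. In mesothelial cells with at most 2 UMIs of Pdgfra, Dpt and Col15a1, 5 UMIs in 203 Tom+ cells (1.23 CPM, 0.40 to 2.88) and 19 UMIs in 1595 Tom- cells (0.75 CPM, 0.45 to 1.16) remained, with overlapping intervals. Without Scrublet doublets Tom+ cells read 5.87 CPM (3.99 to 8.33) and Tom- cells 1.27 CPM (0.90 to 1.75), a log2 ratio of 2.20. Without cells holding 2 or more UMIs of the immune genes the levels were 6.06 and 2.27 CPM, a log2 ratio of 1.42. The intervals were apart under both settings, but the Tom+ cell with 17 UMIs was kept in both. Intervals for counting error take UMIs as independent, so they cannot tell a library difference from the weight of that cell. Counted by cell and thinned to 5000 UMIs, 0.8% of Tom+ and 0.86% of Tom- mesothelial cells had a Has2 UMI. The intervals of these shares overlapped, as did those without thinning.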

How the results depend on the processing

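In stromal cells, 3 members were lower in Tom+ cells under each setting tried except 2-fold, which gave 2, and equal weights of the clusters, which gave 0, also without cluster 8 (0). In mesothelial cells, the count of members lower in Tom+ cells fell from 1 to 0 at 20 or more marker UMIs, with Scrublet doublets removed and at 2-fold, and the count of higher ones rose from 0 to 1 with cells thinned to 5000 UMIs (Hyal2, log2 ratio 0.62) and where genes averaging 1 CPM or more entered (Has2). The counts between the classes were 4 to 6 (Tom+ library, 5 as reported) and 6 to 7 (Tom- library, 7 as reported). The log2 ratio between the gates in stromal cells ranged from -1.37 to -0.48 for Has1, from -1.12 to -0.48 for Tnfaip6 and from -0.82 to -0.31 for Uap1, and the signs of Cd44, Vcan and Has2 were not the same under all settings. The equal weights for the counts, the settings without cluster 8 and the immune-gene limit were chosen after seeing the data. No paired analysis was possible because each gate had 1 library. Has2 and Hyal2 in mesothelial cells of the Tom+ library rest on 31 and 53 UMIs, which limits what can be read from them.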
